A study of Mus musculus with 9 samples.

Results

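The GABA-A receptor subunits described here were the 7 genes Gabra2, Gabra3, Gabra5, Gabrb1, Gabrb2, Gabrg1 and Gabrg3, taken as every probe set annotated to one of these symbols and to no other gene. They were read by 23 probe sets and formed 7 of the 18193 genes tested. The study profiled motor neurons cut by laser from cresyl violet-stained sections of untreated wild-type C57BL/6J male mice at postnatal day 7. Its title names a comparison of motor pools that differ in vulnerability in ALS, the motor neuron disease in which limb motor neurons are lost early and oculomotor neurons are largely spared. The 3 pools were lumbar motor neurons at spinal level L5 (L5), motor neurons of the oculomotor nucleus in the midbrain (OMN) and motor neurons of the dorsolateral nucleus at spinal level L6 (DL). Each pool was measured on 3 arrays, and about 200 neurons of each pool were taken from each of 3 animals.

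GABA-A receptors are chloride channels built from several subunits around a central pore, and they carry most of the fast inhibition that GABA exerts on neurons. Most receptors combine alpha, beta and gamma subunits. The alpha and gamma subunits bear on the response to benzodiazepines, and the alpha subunit also bears on where in the cell the receptor sits. Motor neurons receive GABA and glycine from local interneurons, and early after birth their subunit make-up is still changing.

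Among the subunits measured, OMN stood apart from both spinal pools in Gabrb2, which was 6.38-fold higher than in L5 and 7.22-fold higher than in DL by mean intensity. L5 stood apart in Gabra5, which was 2.96-fold higher than in OMN and 3.55-fold higher than in DL. Gabra2 was lower in OMN than in either spinal pool (2.16-fold against L5, 2.13-fold against DL), but its calls were lost on leaving out any single array. The Gabra5 call against OMN was lost on leaving out any L5 or OMN array, and that against DL on leaving out any L5 array. The Gabrb2 call in L5 against OMN was lost on leaving out any OMN array and some L5 arrays. Only the Gabrb2 call in DL against OMN held on leaving out each array in turn. No difference of Gabra3, Gabrb1, Gabrg1 or Gabrg3 was called in limma's test at an adjusted p under 0.05. In L5 against OMN 3 of the 7 subunits were called, against 2.17% of all genes tested. In L5 against DL the count was 1 of 7, against 2.55% of all genes, and in DL against OMN it was 2 of 7, against 3.02%. The arrays of the pools did not overlap for 5 of the 7 subunits in L5 against OMN, where 27.4% of all genes did not overlap. The same count was 4 of 7 in L5 against DL, beside 23.5% of all genes, and 2 of 7 in DL against OMN, beside 21.1%. The median log2 difference of the 7 subunits was 0.44 for L5 minus OMN, 0.28 for L5 minus DL and -0.16 for DL minus OMN, where the medians of all genes were 0.01, 0.06 and -0.04.

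Values are the deposited array intensities, and a gene with several probe sets is represented by the one with the highest mean over the 9 arrays. Log2 differences are on the scale of log2(intensity + 16) and carry the standard error of the limma fit. The p-values are adjusted over all genes tested by the Benjamini-Hochberg method. Intensities of different probe sets are not comparable, so no subunit is ranked against another. The arrays had medians of 26.4 to 35.5, and 67.0 to 71.5% of genes lay above a noise level of 18.3, set from control probe sets whose target RNA was not added. The DL arrays scattered more than the others: the median SD of a gene on the log2 scale stood at 0.34 in DL, at 0.22 in L5 and at 0.20 in OMN, and that of the 7 subunits at 0.39, 0.20 and 0.15. The Gapdh ratio, the 3' over 5' signal taken as a reading of RNA integrity, was 3.27, 2.44 and 3.75 in DL. On the L5 and OMN arrays it was 2.33 to 2.67. The same ratio for actin was 0.934, 0.807 and 0.995 in DL and 0.900 to 0.934 on the L5 and OMN arrays. DL 3 was the highest array in both ratios, while DL 2 was the lowest for actin. Adding the Gapdh ratio to the model moved some uncalled differences. Among the 7 subunits, the calls of Gabra5 in L5 minus OMN and of Gabrb2 against both spinal pools held (limma adjusted p 0.0161 to 0.0451). Those of Gabra2 against OMN and of Gabra5 in L5 minus DL were lost. The log2 differences of the lost calls changed little, as for Gabra5 in L5 minus DL, from 1.78 to 1.86. Because DL 1 and DL 3 had the highest Gapdh ratios and only DL 2 lay within the L5 and OMN range, this fit cannot fully separate the ratio from the pool. The part of the ratio in the DL differences was not tested. The motor neuron markers Slc18a3, Slc5a7, Prph and Isl1 lay between 494.7 and 10376 on all 9 arrays, while the probe set of Chat lay at 1.2 to 24.5, near the noise level. Isl1, a motor neuron transcription factor, averaged 598.2 in L5, 2129 in OMN and 2717 in DL, and the neurofilament-like Prph averaged 10260, 4844 and 8626. In such pooled captures, fewer cells of a type and less RNA per cell cannot be told apart.

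Gabra5 encodes the alpha5 subunit, found largely in receptors outside synapses. It read 1700.2, 1319.8 and 1319.3 in L5, 534.5, 498.6 and 434.1 in OMN, and 375.8, 391.6 and 454.3 in DL. All 3 L5 arrays lay above all 6 arrays of the other pools, while OMN and DL overlapped. The means were 1446 ± 220 (SD, n = 3), 489.1 ± 50.9 (SD, n = 3) and 407.2 ± 41.5 (SD, n = 3). On the log2 scale L5 exceeded OMN by 1.53 ± 0.20 (SE, limma adjusted p = 0.015) and DL by 1.78 ± 0.20 (SE, limma adjusted p = 0.00965). The difference of DL minus OMN was -0.25, with a 95% interval of -0.73 to 0.22 and a limma adjusted p of 0.623. Gabra5 has a single probe set, so no second reading was at hand. The call against OMN was lost on leaving out any L5 or OMN array (adjusted p 0.0787 to 0.10), and the call against DL on leaving out any L5 array (0.0518 to 0.0691). Both were also lost with a pseudocount of 1 (0.0672 and 0.0572), and the call against DL when only these 2 pools were fitted (0.0807) or when the Gapdh ratio entered the model (0.0587).

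The 250 bases before the RefSeq start of Gabra5 (GRCm38.p6, chr7:57510060-57510309, minus strand) are shown because this gene separates L5 from the other pools. Capitals mark the CCAAT box, the only match on either strand among the motifs searched.

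Gabra5: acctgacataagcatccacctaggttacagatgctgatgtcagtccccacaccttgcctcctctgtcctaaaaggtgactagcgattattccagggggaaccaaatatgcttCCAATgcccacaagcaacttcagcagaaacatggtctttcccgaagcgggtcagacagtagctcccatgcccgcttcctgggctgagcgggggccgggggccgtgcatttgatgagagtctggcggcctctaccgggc

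Gabra2 encodes the alpha2 subunit, a common partner in synaptic receptors of the young spinal cord. It read 371.1, 336.7 and 357.2 in L5, 154.6, 186.8 and 152.5 in OMN, and 368.3, 350.0 and 332.8 in DL. All 3 OMN arrays lay below all 6 spinal arrays, and L5 and DL overlapped. The means were 355.0 ± 17.3 (SD, n = 3) in L5, 164.6 ± 19.2 (SD, n = 3) in OMN and 350.4 ± 17.8 (SD, n = 3) in DL. L5 exceeded OMN 2.16-fold, a log2 difference of 1.04 ± 0.18 (SE, limma adjusted p = 0.0378). DL exceeded OMN 2.13-fold, a log2 difference of 1.02 ± 0.18 (SE, limma adjusted p = 0.0327). L5 minus DL was 0.02, with a 95% interval of -0.41 to 0.45. Both calls against OMN were lost on leaving out any one of the 9 arrays, with adjusted p of 0.0555 to 0.177 for L5 and 0.0632 to 0.151 for DL, although the log2 difference stayed between 0.95 and 1.15. They were also lost with a pseudocount of 1 (adjusted p 0.114 and 0.102), on averaging the gene's probe sets (0.112 and 0.202), when only the 2 pools were fitted (0.0705 and 0.144) and when the Gapdh ratio entered the model (0.0542 and 0.144). The call in L5 was lost when every probe set was tested (0.056).

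Of the 5 probe sets of Gabra2, 3 were above noise on all 9 arrays, and in each of these every OMN array lay below every L5 array. The log2 differences of L5 minus OMN were 1.04, 1.72 and 1.29. The second probe set scattered widely in DL, where it read 64.6, 183.8 and 583.9. There DL overlapped OMN, which read 51.5, 106.9 and 139.8. The remaining 2 probe sets were dim, at or below 20.0 on every array.

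The window before the start of Gabra2 (GRCm38.p6, chr5:71095850-71096099, minus strand) is shown as that of the alpha gene called lower in OMN than in both spinal pools. Its GC content was 70.0%, where the median of all 32851 RefSeq windows cut in the same way was 52.4%. Capitals mark a GC box and a CCAAT box, the latter on the opposite strand.

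Gabra2: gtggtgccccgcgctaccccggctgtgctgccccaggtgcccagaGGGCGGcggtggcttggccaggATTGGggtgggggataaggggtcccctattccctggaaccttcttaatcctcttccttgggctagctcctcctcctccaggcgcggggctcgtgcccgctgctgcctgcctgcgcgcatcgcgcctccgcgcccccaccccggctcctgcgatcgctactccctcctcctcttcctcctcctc

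Gabra3 encodes the alpha3 subunit. It read 398.9, 405.2 and 436.3 in L5, 526.4, 532.0 and 398.4 in OMN, and 459.7, 1436.9 and 462.9 in DL. One array, DL 2, stood at 3.10 times the DL median, and its second probe set was also highest on that array, at 205.6. The limma adjusted p was 0.831 for L5 minus OMN (log2 difference -0.21), 0.362 for L5 minus DL (-0.69) and 0.606 for DL minus OMN (0.48). Without DL 2 the difference of DL minus OMN was -0.03 and that of L5 minus DL was -0.18. With the Gapdh ratio in the model they were 1.18 and -1.40. The DL arrays each had 32 to 52 genes at over 2 times their level on every other array, where the L5 and OMN arrays had 0 to 7; the part of this in the Gabra3 value was not tested.

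**Figure D1:**
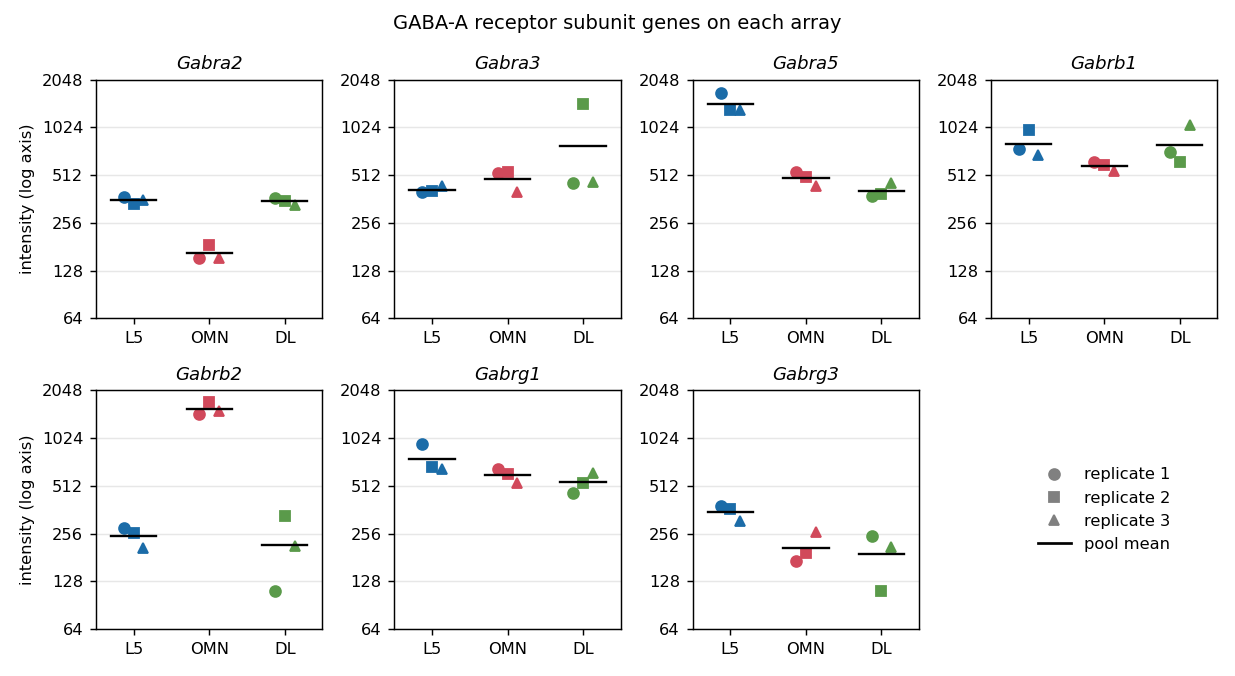
Intensity on a log scale of the 7 GABA-A receptor subunits on each of the 9 arrays; points are arrays, coloured by pool and shaped by replicate number, and lines mark pool means. Gabrb2 lies at 1460.9 or above on the OMN arrays and at 330.3 or below on the spinal arrays, and Gabra5 lies at 1319.3 or above in L5 only.

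Gabrb2 encodes the beta2 subunit, a main beta subunit of the mature brain. It read 275.9, 257.4 and 207.4 in L5, 1460.9, 1742.2 and 1522.0 in OMN, and 110.4, 330.3 and 213.5 in DL. Every OMN array lay far above all 6 spinal arrays, and L5 and DL overlapped. The means were 246.9 ± 35.4 (SD, n = 3), 1575 ± 148 (SD, n = 3) and 218.1 ± 110 (SD, n = 3). The log2 difference was -2.60 ± 0.31 for L5 minus OMN (SE, limma adjusted p = 0.00996) and -2.88 ± 0.31 for DL minus OMN (SE, limma adjusted p = 0.00476). L5 minus DL was 0.28, with a 95% interval of -0.45 to 1.00 and a limma adjusted p of 0.695. The call in DL against OMN held in all 21 alternatives run (adjusted p 7.04e-05 to 0.0452). The call in L5 against OMN was lost with a pseudocount of 1 (0.0587) and without L5 2, L5 3, OMN 1, OMN 2 or OMN 3 (0.0583 to 0.0787).

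All 5 probe sets of Gabrb2 gave the same order, with every OMN array above all 6 spinal arrays. Tested each on its own over all probe sets, 4 of the 5 were called in DL against OMN and 1 of the 5 in L5 against OMN. The dimmest of them read 65.2, 78.2 and 51.1 in L5, 285.9, 250.5 and 268.4 in OMN, and 18.3, 103.8 and 53.7 in DL. One of the 5 is of the type whose probes can also match other transcripts, and its L5 values reached 639.2, where its lowest OMN value was 953.7.

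The window before the first of the 3 RefSeq starts of Gabrb2 (GRCm38.p6, chr11:42420190-42420439, plus strand) is shown because this gene had the largest difference among the 7. Capitals mark a GC box on the opposite strand and a TATA box close to the start.

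Gabrb2: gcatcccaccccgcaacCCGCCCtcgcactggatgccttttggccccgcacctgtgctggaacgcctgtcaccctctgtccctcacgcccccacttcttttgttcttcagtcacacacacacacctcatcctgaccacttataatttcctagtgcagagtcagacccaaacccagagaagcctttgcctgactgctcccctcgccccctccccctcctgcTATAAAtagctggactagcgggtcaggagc

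The motifs searched on both strands were the GC box (GGGCGG), the CCAAT box (CCAAT), the TATA box (TATAAA), the cyclic AMP response element (TGACGTCA) and the homeodomain core (TAATTA). Of all windows of this length, 32.7% held the GC box, 33.8% the CCAAT box, 12.4% the TATA box, 1.55% the response element and 4.84% the homeodomain core. A match describes the letters of the window and no binding was measured here.

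**Figure D2:**
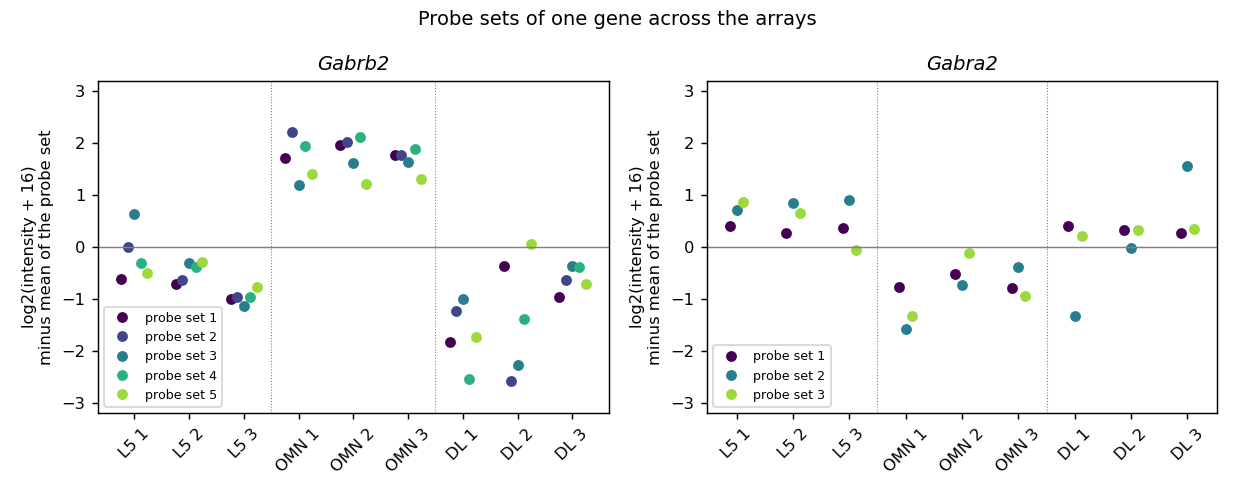
Log2(intensity + 16) minus the probe set's mean over the 9 arrays, for the 5 probe sets of Gabrb2 (left) and the 3 probe sets of Gabra2 above noise on all arrays (right); each point is 1 probe set on 1 array. In Gabrb2 all 5 probe sets are highest on the OMN arrays, and in Gabra2 the second probe set scatters from 64.6 to 583.9 in intensity over the DL arrays.

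Gabrb1 encodes the beta1 subunit. It read 745.0, 983.5 and 688.4 in L5, 620.1, 592.9 and 542.5 in OMN, and 715.2, 620.0 and 1057.8 in DL. Each L5 array lay above each OMN array, and DL overlapped both. The limma adjusted p was 0.479 for L5 minus OMN (log2 difference 0.44), 0.968 for L5 minus DL (0.03) and 0.539 for DL minus OMN (0.40). With the Gapdh ratio in the model the DL minus OMN difference was 0.04. All 4 of its probe sets were above noise on every array and had a positive L5 minus OMN difference, and none was called when tested alone. In the third, at 512.2, 537.8 and 578.7 in L5 and 291.6, 317.2 and 302.5 in OMN, the limma adjusted p over all probe sets was 0.167.

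Gabrg1 encodes the gamma1 subunit. It read 944.1, 677.9 and 651.7 in L5, 657.8, 603.7 and 536.6 in OMN, and 461.9, 536.1 and 618.0 in DL. L5 lay above DL without overlap and overlapped OMN. Its limma adjusted p was 0.561 for L5 minus OMN (log2 difference 0.32), 0.322 for L5 minus DL (0.47) and 0.818 for DL minus OMN (-0.15). A second, dimmer probe set read 93.8, 71.2 and 92.1 in L5, 70.4, 67.5 and 51.4 in OMN, and 23.2, 37.4 and 10.7 in DL. There the 3 pools did not overlap, and L5 exceeded DL by 1.40 ± 0.26 (SE, limma adjusted p = 0.057 over all probe sets).

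Gabrg3 encodes the gamma3 subunit. It read 383.9, 366.1 and 306.4 in L5, 171.8, 192.4 and 260.9 in OMN, and 245.6, 110.6 and 211.4 in DL. All L5 arrays lay above all arrays of the other pools, which overlapped. The log2 difference was 0.73 ± 0.29 for L5 minus OMN (SE, limma adjusted p = 0.287) and 0.90 ± 0.29 for L5 minus DL (SE, limma adjusted p = 0.161). DL minus OMN was -0.18 (limma adjusted p = 0.847), and -0.62 with the Gapdh ratio in the model. The other 3 probe sets did not all follow this order. The second read 281.3, 226.2 and 212.1 in L5, 312.2, 193.5 and 103.6 in OMN, and 53.9, 122.9 and 244.9 in DL, and the third read 62.0, 69.2 and 97.6, then 72.9, 64.4 and 79.7, then 41.2, 65.7 and 36.3. In both, L5 overlapped OMN and DL. The dimmest, in which L5 lay above both other pools, read 70.2, 51.4 and 71.2 in L5, 24.0, 22.4 and 23.1 in OMN, and 1.2, 26.1 and 2.2 in DL. When the probe sets of a gene were averaged, L5 exceeded DL in both gamma genes, by 0.94 for Gabrg1 (limma adjusted p = 0.0469) and by 1.03 for Gabrg3 (limma adjusted p = 0.0353).

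**Figure D3:**
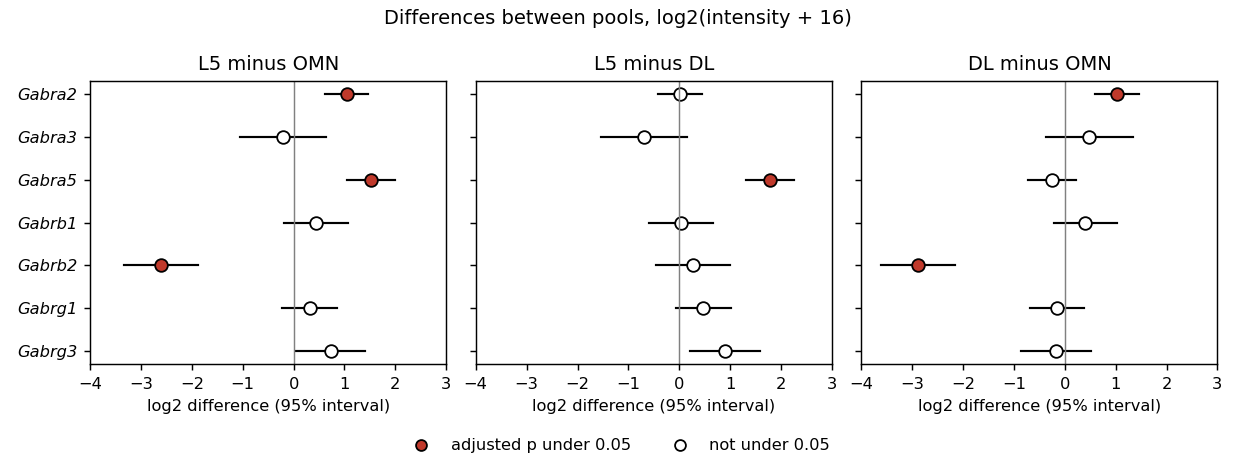
Log2 difference between pools with its 95% interval for the 7 subunits in the 3 comparisons; filled points are called at a limma adjusted p under 0.05. The called differences are those of Gabra2, Gabra5 and Gabrb2 in L5 minus OMN (1.04, 1.53 and -2.60), Gabra5 in L5 minus DL (1.78), and Gabra2 and Gabrb2 in DL minus OMN (1.02 and -2.88).

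Ratios of members of one class within an array show how the make-up shifted between pools; their own level depends on the probe sets and only the change is read. The log2 ratio of Gabrb2 over Gabrb1 was -1.43, -1.93 and -1.73 in L5, 1.24, 1.56 and 1.49 in OMN, and -2.70, -0.91 and -2.31 in DL. OMN stood above both spinal pools on every array, and the mean difference was -3.13 for L5 minus OMN and -3.40 for DL minus OMN. Among the alpha genes, the log2 ratio of Gabra5 over Gabra2 was 2.02 ± 0.16 (SD, n = 3) in L5, 1.57 ± 0.19 (SD, n = 3) in OMN and 0.21 ± 0.21 (SD, n = 3) in DL. For this pair DL had the lowest ratio, below every array of the other pools. Gabra5 over Gabra3 set L5 apart instead: it was 2.09, 1.70 and 1.60 in L5, 0.02, -0.09 and 0.12 in OMN, and -0.29, -1.88 and -0.03 in DL. Gabra3 over Gabra2 was 0.10, 0.27 and 0.29 in L5 and 1.77, 1.51 and 1.39 in OMN. In DL it was 0.32, 2.04 and 0.48, so that DL 1 and DL 3 lay between the arrays of the other pools and DL 2 above all of them. Gabrg3 over Gabrg1 overlapped among the 3 pools, at means of -1.09, -1.54 and -1.58.

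**Figure D4:**
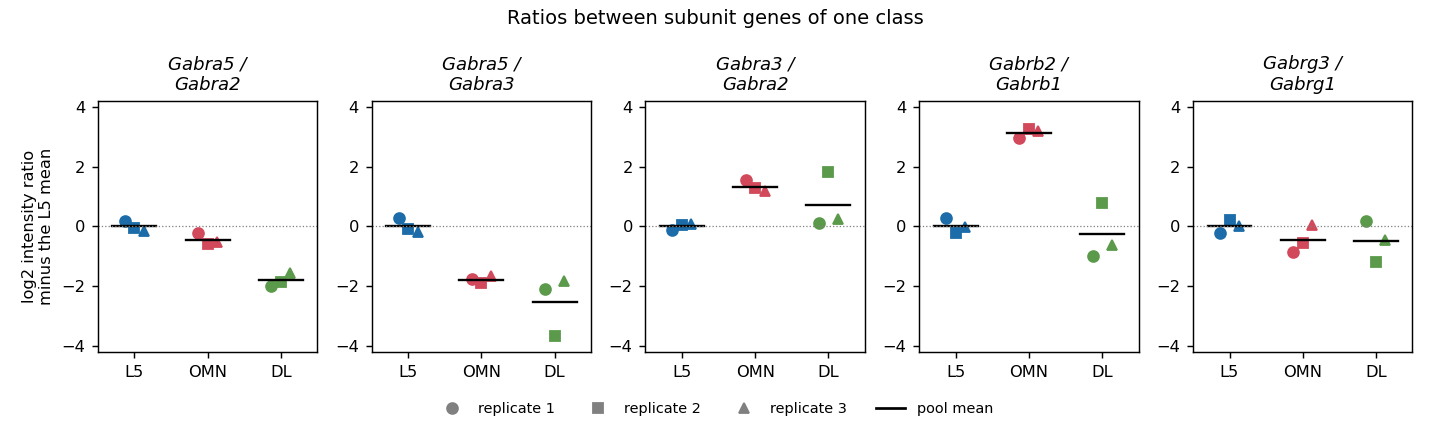
Log2 intensity ratio of subunits of one class on each array, minus the mean ratio of the L5 arrays, by pool; points are arrays, shaped by replicate number, and lines are pool means. Gabrb2 over Gabrb1 is higher in OMN than in the spinal pools (-3.13 for L5 minus OMN, -3.40 for DL minus OMN), while Gabrg3 over Gabrg1 overlaps between the pools.

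In the RefSeq gene table (GRCm38.p6) the subunit genes lie in groups. Gabrg1, Gabra2 and Gabrb1 share chromosome 5, with no protein-coding gene between Gabrg1 and Gabra2 and with Gabra4 between Gabra2 and Gabrb1. Gabrg3 and Gabra5 are adjacent on chromosome 7, Gabrb2 lies next to Gabra6 on chromosome 11, and Gabra3 lies between Gabre and Gabrq on chromosome X. On chromosome 7 the chosen probe sets of both genes were highest on the 3 L5 arrays, with Gabra5 called and Gabrg3 not called. In some other probe sets of Gabrg3, L5 overlapped OMN and DL. On chromosome 5 the called difference of Gabra2 against OMN stood beside uncalled ones in the same direction of Gabra4 and Gabrb1. Gabra4 gave 0.84 for L5 minus OMN and 1.14 for DL minus OMN, and Gabrb1 gave 0.44 and 0.40. Gabrg1 gave 0.32 and -0.15 in the same comparisons.

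Of the other GABA-A receptor subunits listed, 8 were tested and 4 of these were above noise on any array. The list's median log2 difference for DL minus OMN was 0.15, beside -0.04 for all genes. Gabre, the epsilon subunit, was the only one called, in DL against OMN, where 3.02% of all genes were called. It read 60.2, 328.6 and 134.9 in DL and 10.3, 5.4 and 6.8 in OMN, all below noise, so that DL was at least 7.58-fold higher, taken as its geometric mean over the noise level (limma adjusted p = 0.0384). This call held in 12 of 21 alternatives, with adjusted p of 0.00587 to 0.174, and was lost among others on leaving out any OMN array. Not called was Gabra4, the alpha4 subunit, which read 210.5, 148.3 and 275.0 in L5, 86.0, 102.8 and 139.0 in OMN, and 318.6, 246.4 and 214.2 in DL. OMN lay below both spinal pools on every array, with a limma adjusted p of 0.198 against L5 and 0.0832 against DL.

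Of the genes for receptor assembly, trafficking and anchoring, 23 were tested. The only call was 1 gene in L5 against OMN, where 2.17% of all genes were called. The list's median log2 difference there was -0.10, beside 0.01 for all genes. Insyn2a, an inhibitory synapse factor, had means of 2079 ± 310 (SD, n = 3) in L5 and 976.0 ± 37.3 (SD, n = 3) in OMN (limma adjusted p = 0.0369), a call that held in 7 of 21 alternatives and in none that left out an array. Gphn, the gephyrin scaffold of inhibitory synapses, averaged 1605 in L5, 1089 in OMN and 790.5 in DL and was not called (limma adjusted p = 0.322 for L5 minus OMN, 0.0803 for L5 minus DL). Of the 11 tested genes of other GABA receptors and GABA handling, 2 were called, both in DL against OMN. There 3.02% of all genes were called, and the list's median log2 difference was -0.23, beside -0.04 for all genes. Kctd8, an auxiliary subunit of GABA-B receptors, was higher in DL (731.5 ± 152 against 278.7 ± 55.2, SD, n = 3; limma adjusted p = 0.0313). Aldh5a1, which breaks down a product of GABA, was lower (656.7 ± 213 against 1723 ± 58.7, SD, n = 3; limma adjusted p = 0.0279). Each held in 9 of 21 alternatives; the call of Kctd8 was lost on leaving out any array, and that of Aldh5a1 on leaving out any array other than DL 2. Slc12a5, the chloride exporter KCC2, which sets the direction of the GABA current, averaged 7120 in L5, 6061 in OMN and 4297 in DL and was not called (limma adjusted p = 0.0875 for L5 minus DL).

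Markers of other cell types also differed between the pools. The 4 tested markers of inhibitory interneurons had summed levels between 1628 and 2232 in L5, between 1852 and 2674 in OMN, and between 5017 and 5875 in DL. These markers did not follow 1 order. The glycine transporter Slc6a5 averaged 550.6 in L5, 22.57 in OMN and 706.8 in DL and was called lower in OMN than in both spinal pools, as Gabra2 was. The vesicular transporter Slc32a1 averaged 963.0, 474.6 and 1882 and was called lower in OMN than in DL only. The GABA-synthesising enzymes went the other way against L5: Gad1 averaged 100.9, 395.6 and 428.6 and Gad2 averaged 268.6, 1312 and 2340, and both were called lower in L5 than in OMN and DL. The 9 astrocyte markers had sums from 15690 to 16960 (L5), 12580 to 13320 (OMN) and 13720 to 15960 (DL). Of these only Gfap, at 325.4, 18.0 and 1550, was called between OMN and a spinal pool. Between L5 and DL, Gfap was called lower in L5 and S100b higher (limma adjusted p = 0.0347). S100b averaged 3009, 1651 and 1365, highest in L5 as Gabra5 was, and was not called against OMN (limma adjusted p = 0.0903). The 3 tested markers of Schwann cells and dorsal root ganglion had sums from 1887 to 2239 (L5), 120.2 to 194.6 (OMN) and 731.0 to 1125 (DL). Pmp22 alone carried that sum, at 2060, 134.6 and 874.7, highest in L5 as Gabra5 was; Avil (25.3, 27.33 and 47.87) and Scn10a (3.7, 2.5 and 9.77) were dim, highest in DL on average and not called. The 2 tested markers of excitatory interneurons had sums from 389.7 to 503.3 (L5), 983.0 to 1246 (OMN) and 146.1 to 287.7 (DL), highest in OMN as Gabrb2 was. Slc17a6 alone carried this sum (456.5, 1124 and 201.8), since Lmx1b averaged 4.2, 14.1 and 2.87. Sums of the 9 oligodendrocyte markers were 14420 to 15550, 12390 to 13410 and 18300 to 19340, those of the 7 microglial markers 950.2 to 1109, 818.0 to 1209 and 559.5 to 1181, and those of the 4 endothelial markers 372.2 to 705.8, 792.1 to 932.5 and 894.2 to 1392, in the order L5, OMN and DL. No marker named here was at 0 on any array. The part of these markers in the subunit differences was not tested.

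The genes whose pattern over the 9 arrays was most like that of a called subunit were found by Pearson correlation on the log2 scale among 8879 genes with a mean of at least 100. For Gabra2 they were Hoxa9 (r = 0.988), Hoxa10 (0.987) and Anxa2 (0.984). Hoxa9 and Hoxa10, which pattern the caudal spinal cord, read 1328 to 1670 and 396.7 to 605.8 in the spinal pools and at most 14.3 and 2.3 in OMN. For Gabra5 they were Ano10 (0.981), Nrbp1 (0.972) and Nkiras1 (0.971), and for Gabrb2 they were Krt25 (0.979), Cnpy1 (0.968) and Gngt1 (0.965). Gngt1 read 307.0 to 362.4 in OMN and at most 16.9 in the spinal pools. Among the members, Gabra2 and Gabrb2 had the most negative correlation, at -0.947 over the 9 arrays. All these values share the arrays and the difference between pools, so they describe likeness of pattern over 3 pools.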

How the data were processed

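RNA from laser-captured cells was amplified, biotin-labelled and read on Affymetrix whole-genome mouse arrays, per the labels' protocols. The deposited intensity values are linear and were made by the authors before deposit; the sources used here do not give the software. After trimming 2% at each end, every array had a mean of 250, so the arrays had been scaled. Of 45101 probe sets, 64 were controls, 34945 carried 1 gene symbol and 932 carried several; the latter were not used. For each of the 18193 genes, the probe set brightest on average over the 9 arrays was taken.

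Differences came from moderated linear models (limma 3.58.1, R 4.3.3; lmFit and eBayes) of log2(intensity + 16) over all 9 arrays, with pool and replicate number as terms. P-values were adjusted by Benjamini-Hochberg over all genes of a comparison, and a call is an adjusted p under 0.05. The noise level of 18.3 comes from 27 control probe sets for which no RNA was added, chosen after their values were seen. With 3 arrays a pool, the number of arrays limits the precision. The fit was tested on simulated data. Alternatives numbered 21.

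Named genes were all 7 members, called genes of the 3 related lists (other subunits, assembly and anchoring, other GABA genes) and, for each called member, the 3 most correlated genes with a mean of at least 100, other members and provisional gene names passed over. Gabra4, Gphn and Slc12a5 were named after their values were seen. Members, lists and markers were chosen with earlier results of these data known. Gene names came from the platform annotation, and promoter sequences, gene order and names from RefSeq (GRCm38.p6); all 7 members had a promoter window. The genome build of the array annotation was not used.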

Additional observations from a re-analysis of the deposited data

How the results depend on the processing

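The 7 subunits' 21 differences were recomputed under 21 alternatives. The count called in L5 minus OMN was 3, fell to 0 with a pseudocount of 1, and ranged from 0 to 2 on leaving out 1 array. In L5 minus DL it was 1; it was 0 with a pseudocount of 1, with only the 2 pools fitted and with the Gapdh ratio in the model, 3 on averaging a gene's probe sets, and 0 to 1 on leaving out 1 array. In DL minus OMN it was 2, and 1 under those same 4 alternatives and on leaving out each array in turn. Among the counts over all genes, leaving out 1 array gave 83 to 375 in place of 394, 55 to 259 in place of 464 and 186 to 370 in place of 550. Across the other settings they ran from 103 (pseudocount 1) to 946 (trended, robust variance), from 46 (only the 2 pools) to 1153 (trended, robust) and from 120 (only the 2 pools) to 880 (trended, robust). The cause was not tested.

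Without the replicate block, 3, 1 and 2 subunits were called, as with it, and 579, 806 and 716 genes in all. Arrays with the same replicate number did not deviate together (r of -0.0544 to 0.0369 over 9 pairs, beside -0.0568 to 0.0402 over 18 pairs with different numbers), so the number is not shown to pair them.

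Centring the arrays on their medians moved the median of all genes by -0.17 in L5 minus DL and by 0.21 in DL minus OMN, and the calls from 232 higher and 232 lower to 169 and 406, and from 249 and 301 to 384 and 195. The log2 difference then changed sign for Gabra2 (-0.15) and Gabrb1 (-0.14) in L5 minus DL, and for Gabrg1 (0.058) and Gabrg3 (0.037) in DL minus OMN. On leaving out 1 array the sign changed for differences that no alternative called: Gabra3 in L5 minus OMN (range -0.45 to 0.10), Gabra2 (-0.028 to 0.097), Gabrb1 (-0.21 to 0.33) and Gabrb2 (-0.12 to 0.56) in L5 minus DL, and Gabra3 (-0.032 to 0.76), Gabrg1 (-0.34 to 0.065) and Gabrg3 (-0.43 to 0.13) in DL minus OMN. No called difference of a subunit changed sign. Signal near the noise level limits the dim probe sets and Gabre.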

Other observations

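A probe set annotated to both 6330406O05Rik and Gabrg3, which was outside the rule, read 177.2, 247.1 and 141.9 in L5, 128.1, 82.4 and 109.6 in OMN, and 97.4, 126.9 and 89.0 in DL. Its L5 values lay above those of both other pools, as did those of 2 of the 4 probe sets of Gabrg3 alone; in the other 2, L5 overlapped both pools.

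On chromosome X, Gabre and Gabra3 both had their highest value on the array DL 2 (328.6 and 1436.9), while their neighbour Gabrq read 81.3, 7.9 and 41.7 on the 3 DL arrays and was lowest there on DL 2. These genes were singled out after their values were seen.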
